A study of Sus scrofa with 12 samples.

Results

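Extracellular vesicles (EVs) are shed by cells as small membrane-bound particles that carry RNA and protein, and the genes described here encode much of the machinery that sorts cargo on endosomes and builds such vesicles. They are the ESCRT genes, the genes named VPS (vacuolar protein sorting), the sorting nexins, the tetraspanins and the lysosomal membrane proteins of the LAMP family. Members were chosen by symbol alone: CHMP, VPS, SNX, TSPAN or LAMP followed by a digit, symbols that begin with STAM, and CD9, CD63, CD81, CD82, CD151, TSG101, HGS, PDCD6IP and SDCBP. The table named 13363 distinct symbols and 85 of them were members, and of several entries with 1 symbol the most read was taken. Of the 85 members, 71 had enough reads to be tested and 14 did not.

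The comparison is of mRNA levels in EVs with those in the cells that released them. Mesenchymal stromal/stem cells (MSCs) were grown from the abdominal fat of 3 female domestic pigs aged 3 months, cultured with platelet lysate and used at passage 3. Their EVs were pelleted from the culture supernatant by ultracentrifugation, so that each pig gave 1 MSC and 1 EV mRNA library, with 3 libraries in each group and no treatment or gene alteration in either. All values are RNA levels, and they do not measure the protein or the number of vesicles. In such bulk libraries, fewer vesicles or cells of a type and less RNA in each of them cannot be told apart.

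On the endosome, ESCRT-0 gathers ubiquitin-tagged cargo, ESCRT-I and ESCRT-II deform the membrane, and ESCRT-III filaments close the neck of the bud, after which the VPS4 ATPases take the filaments apart. The same steps form the intraluminal vesicles that are released as exosomes when the endosome fuses with the plasma membrane. Sorting nexins and the retromer carry cargo away from that fate, while tetraspanins organize membrane patches and several of them, such as CD63, CD81 and CD9, are common EV markers.

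The MSC libraries held 11332330 to 12276855 counted reads and the EV libraries 10429085 to 12151384, so depth was alike in both groups. Of the 4 surface markers listed for MSCs, CD44, NT5E (CD73) and ENG (CD105) had reads in all 6 libraries, and THY1 (CD90) was listed at 0 reads in each. The paper reports positive staining of its MSCs for CD90. The summed level of the 4 markers was 439 to 1085 CPM (counts scaled to library size) in MSCs and 499.8 to 613 CPM in EVs. The adipocyte markers ADIPOQ, LEP and PLIN1 held at most 6 reads in any library, and PTPRC (CD45) of leukocytes held 2 to 10. The library of the MSCs of pig 2 stood apart, with Spearman correlations over all tested entries of 0.858 to 0.918 to the other 5 libraries. It was the lowest of the 6 libraries for 24 of the 71 tested members (33.8%) and the highest for 27 (38.03%), against 33.6% and 29.2% of all entries tested. Without it, the median log2 fold change of EV over MSC was -0.32 for the tetraspanins (-0.54 with all 6 libraries), -0.30 for ESCRT-III (-0.59), 0.03 for the sorting nexins (0.22) and 0.67 for the VPS13 genes (0.65).

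In all libraries, these genes made up a small and similar share of the reads, 0.546% ± 0.0136 in MSCs and 0.521% ± 0.0884 in EVs (SD, n = 3 each). CD63, the tetraspanin of late endosomes, was the most abundant member per base of gene length, with a mean of 171 ± 47.3 RPKM (reads scaled by gene length and library total) in MSCs and 124 ± 21.9 RPKM in EVs (SD, n = 3 each). It held rank 93 among all entries by its mean over the 6 libraries. CD81 and the ESCRT-III gene CHMP2A followed, with 83.9 and 76.5 RPKM in MSCs and 67.7 and 51.7 RPKM in EVs. The entries of both lie on unplaced scaffolds and are short, 134 bases for CD81 and 504 for CHMP2A. At the other end of the tested members, VPS4A, CHMP4C, TSPAN2 and LAMP1 lay under 0.2 RPKM in both groups. All of these but TSPAN2 have a second entry over their span. CD63 alone took 23.3% ± 4.98 of all member reads in MSCs and 17.9% ± 1.65 in EVs.

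**Figure D1:**
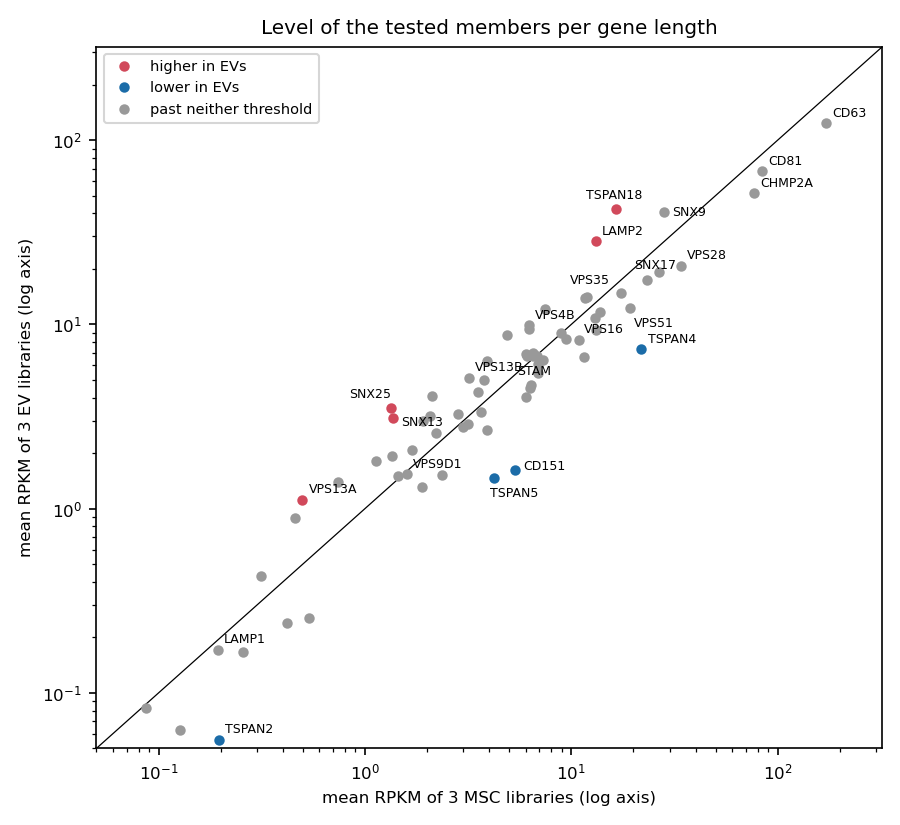
Mean level of each of the 71 tested members in the 3 MSC libraries (x axis) and the 3 EV libraries (y axis), in RPKM on log axes, 1 point a gene, with the line of equal level. CD63, CD81 and CHMP2A lie highest and below the line, the 5 members past the unadjusted threshold that were higher in EVs are red and the 4 that were lower are blue.

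The quasi-likelihood test of edgeR set the EV against the MSC libraries over all 12392 entries with enough reads, and fold changes are given as log2 of EV over MSC, so that positive values are higher in EVs. A fold change over 2 with a Benjamini-Hochberg adjusted p-value under 0.05 was reached by 0 members in either direction and by 0% of all entries in either direction. The lowest adjusted p of a member was 0.212 (edgeR). By the study's own threshold, a fold change over 2 with an unadjusted p-value under 0.05, 5 members were higher in EVs (7.04% of those tested, against 5.55% of all entries) and 4 were lower (5.63%, against 3.57%). Whatever the fold, 17 members had an unadjusted p-value under 0.05 (23.9%, against 16% of all entries). Every EV library lay above every MSC library for 17 members (23.9%, against 14.3%) and below for 14 (19.7%, against 13.6%). The shares of members past the unadjusted threshold were thus near those of all entries in each direction, and the difference between the shares was not tested. Without MSC pig 2, 2 of 71 tested members were higher and 6 lower, against 568 and 498 of 12796 entries.

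With the pig as a block in the fit, 0 members passed the adjusted threshold in either direction, where 0.492% of all entries were higher and 0.605% lower. DESeq2, run as an alternative, called 2 members higher (2.82%, against 1.86% of the entries it tested), SNX25 and TSPAN18, and 3 lower (4.23%, against 1.42%), CD151, TSPAN4 and TSPAN5. Statements below that a member was higher or lower refer to the unadjusted threshold, and the 9 members concerned had adjusted p = 0.212 to 0.266 from edgeR. The p-values measure the spread between these 3 libraries a group.

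**Figure D2:**
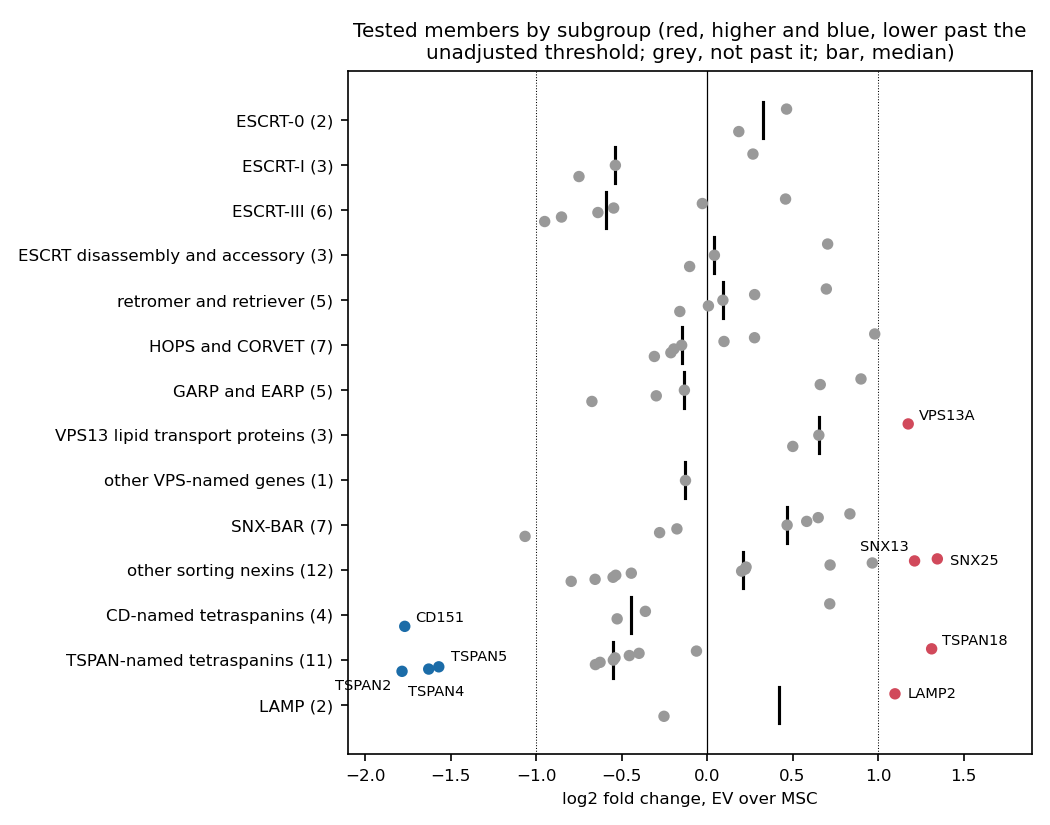
Log2 fold change of EV over MSC (x axis) for each of the 71 tested members, 1 point a gene, in rows by subgroup with the number tested in parentheses and a bar at the median. Tetraspanins lie mostly left of 0, with CD151, TSPAN2, TSPAN4 and TSPAN5 between -1.78 and -1.57, and the dotted lines at -1 and 1 mark a fold change of 2.

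Most tetraspanin mRNAs had lower values in EVs than in the MSCs. Of 15 tested, 13 had a log2 fold change below 0 and 2 above, where 6313 of 12392 entries lay below 0. Their median was -0.54, against -0.02 over all entries and -0.13 over all tested members. In EVs, 4 were lower (CD151, TSPAN2, TSPAN4 and TSPAN5) and 1 was higher (TSPAN18), against 3.57% and 5.55% of all entries. These 4 were the only members of any kind that were lower past the unadjusted threshold. The summed level of the tetraspanins was 1411, 2889.95 and 1814 CPM in the MSC libraries of pigs 1, 2 and 3, and 1448, 1439 and 1351 CPM in the EV libraries, so the highest sum was that of the MSCs of pig 2 and the groups overlapped.

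CD151, which binds laminin-binding integrins, was at 43.6, 98.5 and 45.2 CPM in the MSC libraries of pigs 1, 2 and 3 and at 18.7, 14.3 and 22.0 CPM in the EV libraries. All 3 EV values lay below all MSC values, and MSC pig 2 was far above the rest. The log2 fold change was -1.77 (SE 0.39, adjusted p = 0.212 from edgeR), or 3.41-fold lower in EVs, and without MSC pig 2 it was -1.28. A second entry of the same name covers 97.4% of the span of the CD151 entry and held 0 reads.

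TSPAN4, known as a component of migrasomes, was at 115, 325 and 141 CPM in MSCs and at 56.8, 55.1 and 76.2 CPM in EVs. Here too the groups did not overlap and MSC pig 2 was the highest library. The log2 fold change was -1.63 (SE 0.42, adjusted p = 0.219 from edgeR), and -1.03 without MSC pig 2. TSPAN4 (chr2:123388-142556, minus strand, susScr3) and CD151 (chr2:144753-149372, minus strand) lie 2196 bases apart, and both were highest in MSC pig 2. That library was also the highest for 38.03% of tested members and 29.2% of all entries tested.

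TSPAN5, a tetraspanin of the group that regulates the sheddase ADAM10, was at 27.6, 73.8 and 73.1 CPM in MSCs and at 15.6, 19.6 and 23.6 CPM in EVs. MSC pig 1 was close to the EV libraries, while pigs 2 and 3 were well above them. The log2 fold change was -1.57 (SE 0.41, adjusted p = 0.219 from edgeR). The other tested members of that group, named here after their values had been seen, were TSPAN14 at -0.45, TSPAN17 at -0.65 and TSPAN33 at -0.63, none past a threshold, and ADAM10 itself was at 0.49 (adjusted p = 0.351 from edgeR).

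TSPAN2, a tetraspanin of myelinating glia among other cells, was scarce in all libraries. The MSC libraries held 19, 13 and 19 of its reads and the EV libraries 3, 5 and 6, for a log2 fold change of -1.78 (SE 0.51, adjusted p = 0.237 from edgeR). The EV reads lie near the 3 reads that a count of 0 allows, so the size of that fold is poorly set. On log2(RPKM + 1), where low values move little, the difference of TSPAN2 was -0.18.

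TSPAN18, a partner of the calcium channel Orai1 in endothelial cells, went the other way. It was at 42.5, 61.5 and 36.2 CPM in MSCs and at 86.4, 155 and 107 CPM in EVs, with all EV libraries above all MSC libraries and EV pig 2 the highest. The log2 fold change was 1.31 (SE 0.32, adjusted p = 0.219 from edgeR), and it stayed between 1.05 and 1.56 when each library was left out in turn. By mean RPKM it held rank 5 among the members. Its gene model (chr2:19002630-19021138, minus strand) is only 753 bases long, and RPKM divides by length, so a short model raises this rank.

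The tetraspanins used as EV markers did not pass a threshold. CD63 was at 904, 1877 and 1184 CPM in MSCs and at 984, 925 and 846 CPM in EVs (log2 fold change -0.53, SE 0.34, adjusted p = 0.435 from edgeR), and its log2 fold change was -0.18 without MSC pig 2. Only MSC pig 2 and, less so, MSC pig 3 stood above the EV libraries, and EV was above MSC in pig 1. CD81 was at 24.7, 64.7 and 40.4 CPM in MSCs and at 33.8, 28.8 and 38.4 CPM in EVs (log2 fold change -0.36, SE 0.36), and without MSC pig 2 its sign turned (0.05). CD9 was at 5, 7 and 7 reads in the MSC libraries and at 7, 6 and 4 in the EV libraries, too few for a test, and a second entry lies over the same span. CD82, a tetraspanin known as a suppressor of metastasis, was at 8.29, 14.2 and 23.7 CPM in MSCs and at 12.2, 11.6 and 52.2 CPM in EVs, with EV pig 3 far above the other 5 libraries and a log2 fold change of 0.72 (SE 0.66).

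Among markers of other cell types, PECAM1 (CD31) of endothelial cells was lower in EVs along with these tetraspanins, at 16.7, 10.6 and 9.67 CPM in MSCs and 6.59, 1.56 and 3.14 CPM in EVs (log2 fold change -1.71, adjusted p = 0.249 from edgeR). Of the 4 endothelial markers listed it was the only one tested, VWF was listed at 0 reads and TEK at 0 to 3. The summed level of the list was 9.67 to 16.7 CPM in MSCs and 1.56 to 6.67 CPM in EVs. The pericyte markers CSPG4 and MCAM, the platelet marker GP9 and the macrophage markers CD14 and CD68 passed no threshold, and CD14 lay between 42.1 and 60.2 CPM in all 6 libraries. The part of any other cell type in the tetraspanin values was not tested.

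**Figure D3:**
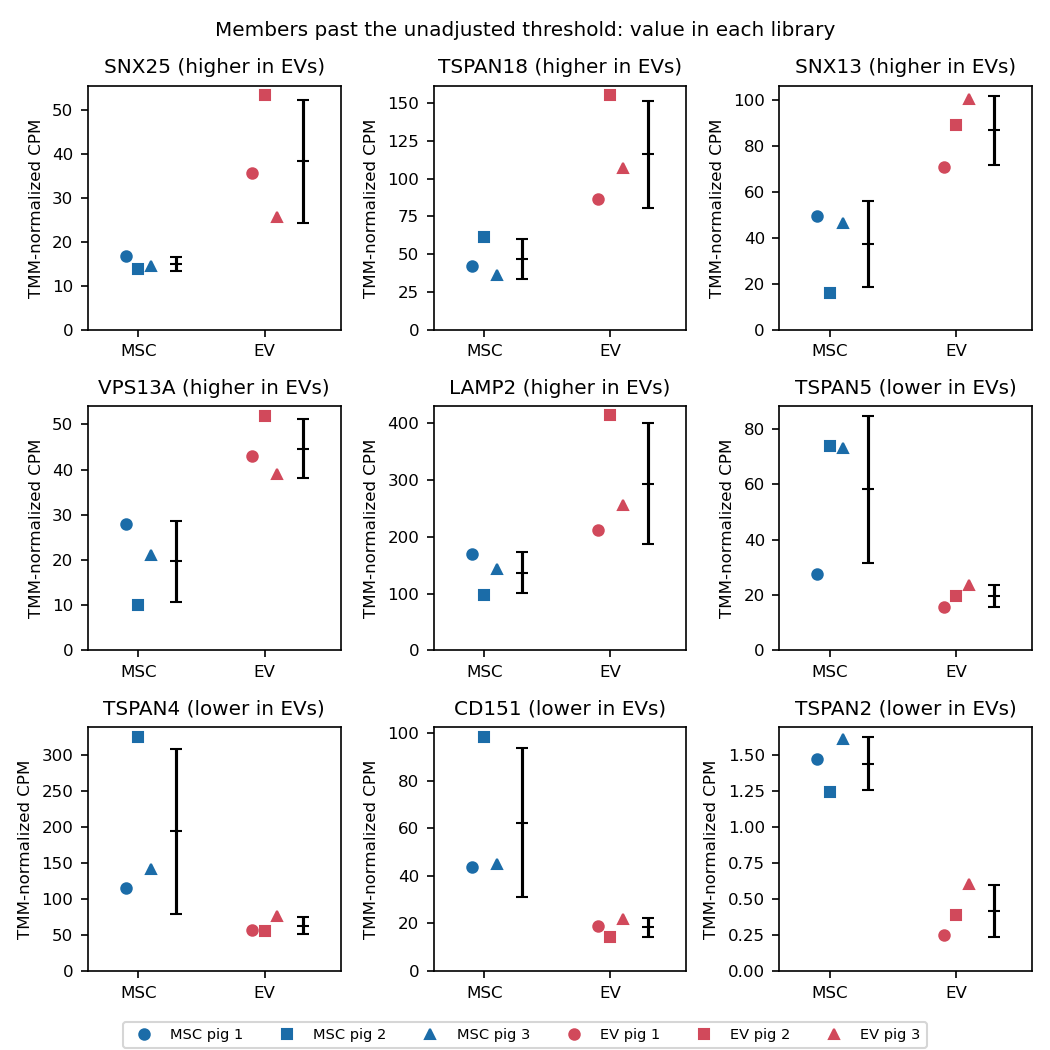
TMM-normalized CPM (y axes, from 0) of the 9 members past the unadjusted threshold in each MSC and EV library, with 1 symbol shape for each pig and bars at the mean ± SD (n = 3). In each panel the 3 EV points lie all above or all below the 3 MSC points, and MSC pig 2 lies apart from the other MSC points for SNX13, VPS13A, TSPAN4 and CD151.

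No ESCRT gene was higher or lower. Of the 14 tested across ESCRT-0, ESCRT-I, ESCRT-III and the accessory genes, 6 had a log2 fold change above 0 and 8 below, with a median of -0.06. The 3 ESCRT-I members had a median of -0.54 and the 6 ESCRT-III members of -0.59, of which 5 lay below 0. The 2 ESCRT-0 members had a median of 0.33. Without MSC pig 2 the medians were -0.27 for ESCRT-I, -0.30 for ESCRT-III and 0.01 for ESCRT-0. The summed level of ESCRT-III was 304, 487 and 346 CPM in MSCs and 299, 264 and 214 CPM in EVs, again highest in MSC pig 2, and all EV libraries lay below all MSC libraries.

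Only 2 ESCRT genes had an unadjusted p-value under 0.05, both with lower values in EVs. VPS28, an ESCRT-I subunit, was at 166, 225 and 181 CPM in MSCs and at 138, 99.4 and 103 CPM in EVs, with no overlap (log2 fold change -0.75, SE 0.25, adjusted p = 0.255 from edgeR). CHMP6, the ESCRT-III subunit that starts the filament, was at 53.0, 70.6 and 55.9 CPM in MSCs and at 43.0, 31.3 and 25.2 CPM in EVs (-0.85, SE 0.27, adjusted p = 0.251 from edgeR). Neither reached a fold change of 2. CHMP2A, which helps recruit VPS4, was at 102, 196 and 143 CPM in MSCs and at 120.3, 91.5 and 71.5 CPM in EVs, and here MSC pig 1 lay below EV pig 1 (-0.64, SE 0.32). CHMP5 was nearly level, from 38.1 to 42.7 CPM over the 6 libraries.

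The ESCRT genes on the other side of 0 were fewer. VPS4B, the ATPase that takes ESCRT-III apart, was at 36.0, 11.5 and 27.1 CPM in MSCs and at 39.0, 39.6 and 43.2 CPM in EVs. All EV libraries lay above all MSC libraries, though MSC pig 2 alone was far below the rest, and the log2 fold change was 0.71 (SE 0.40, adjusted p = 0.39 from edgeR), and 0.36 without MSC pig 2. STAM, an ESCRT-0 subunit, was at 41.4, 28.0 and 43.3 CPM in MSCs and at 42.0, 43.5 and 42.7 CPM in EVs (0.19, SE 0.25), with all libraries but MSC pig 2 nearly equal. Its paralog STAM2 was at 5.55 CPM in MSC pig 2 and between 26.2 and 36.6 CPM in the other 5.

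Several genes that define the pathway had no entry under their symbol and were not analysed here. These were HGS, TSG101, PDCD6IP (ALIX), both listed ESCRT-II subunits VPS25 and VPS36, and CHMP1B, CHMP4A, CHMP4B and CHMP7, among 30 family symbols in all. SDCBP (syntenin), STAMBPL1 and CHMP1A had an entry with 0 reads in every library. A count of 0 allows up to 3 reads, or 0.244 to 0.288 CPM before TMM scaling, for counting error only.

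Of the 14 members under the filter, 9 were at 0 reads (SDCBP, STAMBPL1, CHMP1A, TSPAN1, TSPAN3, TSPAN7, TSPAN12, VPS45 and SNX12) and 5 had at least 1 read. Those 5 were CD9 with 36 reads over the 6 libraries, VPS26B with 23, VPS37B with 5, LAMP5 with 3 and SNX31 with 1. For 15 members a second entry on the same strand shared at least 75% of the span of each, and these members had a median of 5 reads over the 6 libraries, against 2917 for the 70 others. Of the 15, 7 were at 0 reads and 6 were tested, and the second entry held 0 reads for all 15. The 6 tested were CD151, VPS4A, CHMP2B, CHMP4C, VPS33A and LAMP1. SNX12 and TSPAN7 lie on a sequence called X without the usual prefix. All 1170 entries whose sex-chromosome or mitochondrial sequence is written that way held 0 reads. A value at or near 0 for these members is therefore what the table lists, and cannot be told apart from reads that were not assigned.

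Among the VPS genes outside ESCRT, the 3 VPS13 genes, which encode long bridge-like lipid transport proteins, were all above 0, and for each of them every EV library lay above every MSC library. VPS13A was higher in EVs, at 28.0, 10.1 and 21.1 CPM in MSCs and 43.1, 51.9 and 39.0 CPM in EVs (log2 fold change 1.18, SE 0.38, adjusted p = 0.251 from edgeR). MSC pig 2 was the lowest library, and without it the log2 fold change was 0.86, under the fold of 2. VPS13B was at 94.9, 91.2 and 83.1 CPM in MSCs and 123, 186 and 114 CPM in EVs (0.65, SE 0.26), and VPS13D at 69.9, 53.8 and 51.7 CPM in MSCs and 70.9, 95.6 and 81.8 CPM in EVs (0.50, SE 0.23). Their median was 0.65.

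Retromer and retriever, which return cargo from endosomes to the Golgi and the cell surface, showed no member past a threshold. Their 5 tested genes had a median log2 fold change of 0.09. VPS35, the retromer scaffold, was at 165, 77.2 and 127 CPM in MSCs and 129, 147 and 172 CPM in EVs (0.28, SE 0.31), with MSC pig 2 below the other 5 and a log2 fold change of 0.03 without it. VPS26A was at 46.8, 26.8 and 56.9 CPM in MSCs and 68.3, 69.8 and 73.5 CPM in EVs, with no overlap (0.70, adjusted p = 0.313 from edgeR), while VPS35L of the retriever was level (0.01, SE 0.24).

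HOPS and CORVET tether endosomes and lysosomes before fusion. Their 7 tested genes had a median of -0.15 (0.01 without MSC pig 2) and none was past a threshold without the pig as a block. VPS16, a core subunit of both, was at 115, 185 and 122 CPM in MSCs and 123, 121 and 96.4 CPM in EVs (-0.31, SE 0.27), and at a log2 fold change of -0.06 without MSC pig 2. The CORVET subunit VPS8 had the largest fold change, 0.98 (SE 0.45, adjusted p = 0.33 from edgeR), at 18.4, 5.84 and 18.8 CPM in MSCs and 22.0, 28.9 and 34.1 CPM in EVs, where MSC pig 2 was again the lowest. With the pig as a block VPS8 was at 1.11 and passed the unadjusted threshold (adjusted p = 0.193 from edgeR), and without MSC pig 2 it was at 0.61 and did not.

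GARP and EARP receive vesicles at the Golgi and at recycling endosomes, and their subunits had fold changes on both sides of 0. VPS51, shared by both, was at 179.8, 211 and 151 CPM in MSCs and 124, 95.8 and 120.0 CPM in EVs (-0.67, SE 0.24, adjusted p = 0.269 from edgeR). VPS50, the subunit that sets EARP apart, was at 6.35, 4.79 and 8.48 CPM in MSCs and 12.6, 12.3 and 11.7 CPM in EVs (0.90, SE 0.32, adjusted p = 0.269 from edgeR). For both genes the groups did not overlap, in opposite directions, and neither reached a fold change of 2. VPS52, VPS53 and VPS54 lay at -0.30, -0.13 and 0.66. Of the remaining VPS genes, VPS9D1 was at -0.13 (SE 0.32).

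Sorting nexins bind endosomal phosphoinositides through a PX domain, and 2 of the 19 tested were higher in EVs and 0 lower, against 5.55% and 3.57% of all entries. SNX16 joined them once the pig entered the fit as a block, at 1.06 (0.97 without the block, adjusted p = 0.209 with it, edgeR). Their median log2 fold change was 0.22, with 11 above 0 and 8 below. SNX25 had the largest positive fold change of the members. It was at 16.9, 13.8 and 14.6 CPM in MSCs and 35.8, 53.5 and 25.8 CPM in EVs (log2 fold change 1.35, SE 0.32, adjusted p = 0.219 from edgeR), or 2.54-fold higher. The MSC libraries were close together, all EV libraries lay above them, and EV pig 2 was the highest. The fold change stayed between 1.04 and 1.56 when each library was left out.

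SNX13 was at 49.8, 15.9 and 46.7 CPM in MSCs and 70.8, 89.5 and 101 CPM in EVs (log2 fold change 1.21, SE 0.42, adjusted p = 0.266 from edgeR). MSC pig 2 was the lowest library, and without it the log2 fold change was 0.85, under the fold of 2. Without EV pig 3 the unadjusted threshold was no longer passed. SNX13, SNX25, SNX14 and SNX19 belong to 1 family with a PXA domain and a membrane anchor, and were set together after their values had been seen. SNX14 was at 84.4, 49.8 and 113 CPM in MSCs and 116, 139 and 152 CPM in EVs (0.72, SE 0.32), and SNX19 at 0.20 (SE 0.33).

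The 7 tested SNX-BAR proteins, which bend membranes into tubules, had a median of 0.47 and none was past a threshold. SNX9, which acts with dynamin in endocytosis, was the most abundant sorting nexin per length, at 180.3, 335 and 187 CPM in MSCs and 235, 431 and 305 CPM in EVs (0.47, SE 0.35). SNX2, a partner of the retromer, was at 52.2, 28.4 and 58.2 CPM in MSCs and 74.8, 94.8 and 78.1 CPM in EVs (0.84, adjusted p = 0.275 from edgeR), with no overlap. Outside the SNX-BAR group, SNX17, which recycles integrins, lay below 0, at 214, 264 and 227 CPM in MSCs and 185, 161 and 174 CPM in EVs (-0.44, SE 0.22). The SNX-BAR gene SNX32 had the lowest fold change of the sorting nexins, -1.06 (SE 0.67, adjusted p = 0.424 from edgeR), on 8 to 55 reads a library, and did not pass except without MSC pig 2, where it was at -1.49.

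The LAMP proteins coat the lysosomal membrane, and LAMP2 also takes part in chaperone-mediated autophagy. LAMP2 was at 170.5, 98.4 and 143 CPM in MSCs and 212, 413.98 and 256 CPM in EVs, and it was higher in EVs (log2 fold change 1.10, SE 0.34, adjusted p = 0.247 from edgeR). EV pig 2 was the highest library and MSC pig 2 the lowest. Without EV pig 2 the log2 fold change was 0.79 and without MSC pig 2 it was 0.91, both under the fold of 2. LAMP1 held 7 to 31 reads a library, with a second entry named LAMP-1 over its span, and its log2 fold change of -0.25 (SE 0.65) turned to 0.53 without MSC pig 2.

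The 5 members that were higher in EVs lie on different chromosomes. They are SNX25 (ENSSSCG00000015789, chr15:53105367-53186182, plus strand), TSPAN18 (ENSSSCG00000013278, chr2), SNX13 (ENSSSCG00000024761, chr9:95996485-96120246, minus strand), VPS13A (ENSSSCG00000005282, chr1:256783358-257095026, plus strand) and LAMP2 (chrX:112846187-112883411, minus strand), all in susScr3. Of the 4 that were lower, TSPAN4 (ENSSSCG00000012838) and CD151 (ENSSSCG00000012840) share the region of chromosome 2 given above. TSPAN5 (ENSSSCG00000029813) is at chr8:130843387-131031868 and TSPAN2 (ENSSSCG00000006748) at chr4:115641713-115680720, both on the plus strand. Values sum the reads of each gene model, so its exons and UTRs are not told apart. The model lengths of SNX13 and VPS13A are far shorter than these spans, and whether reads in introns were counted is not given in the sources used here. Of the 71 tested members 18 overlap another entry and 53 do not.

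**Figure D4:**
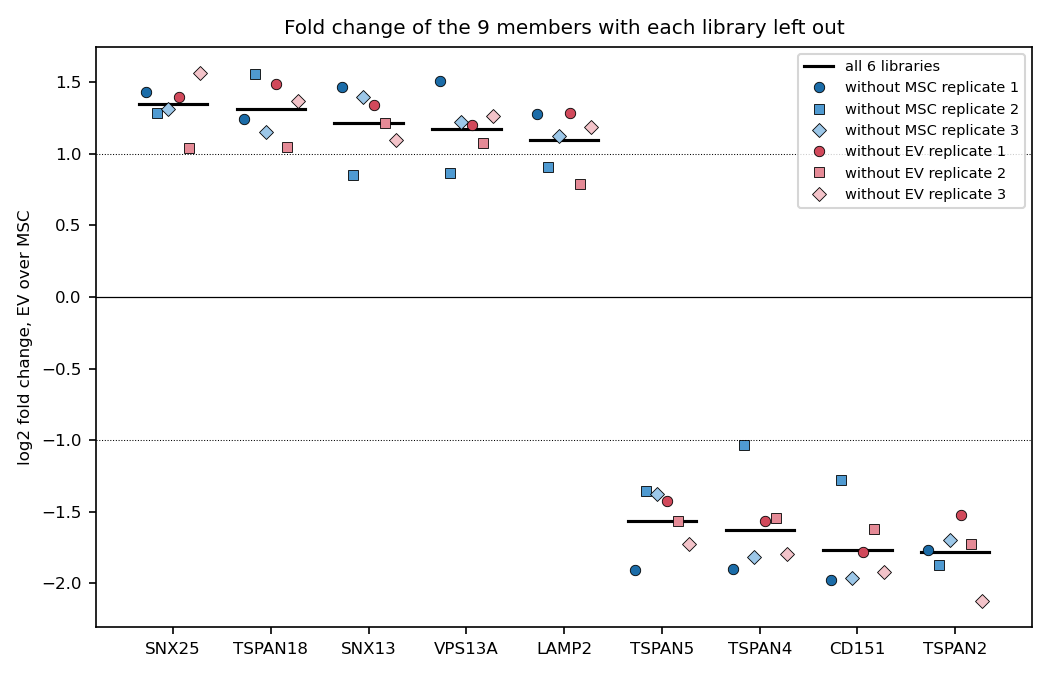
Log2 fold change of EV over MSC (y axis) for the 9 members past the unadjusted threshold, with all 6 libraries (line) and with each library left out in turn (symbols), and dotted lines at a fold change of 2. All values keep their sign, SNX25 and TSPAN18 stay above 1 in each case, and LAMP2, VPS13A and SNX13 drop below 1 without MSC replicate 2.

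The number of members called changed with the library left out. Without MSC pig 2, 2 members were higher in EVs (SNX25 and TSPAN18) and 6 were lower, since CHMP4C and SNX32 joined the 4 tetraspanins. In that fit 568 of 12796 entries were higher and 498 lower. CHMP4C held 37, 1 and 21 reads in the MSC libraries and 6, 11 and 11 in the EV libraries. The 1 read was in the library left out, and a second entry lies over the span of CHMP4C. Without MSC pig 3 the number higher was 8, with SNX14, SNX2 and VPS50 added. The 4 lower tetraspanins were past the unadjusted threshold in each of the 6 fits that left out 1 library.

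Fold changes also varied with the length of the gene model. Over all tested entries, split into 5 equal groups from short to long, the median log2 fold change was -0.13, -0.13, -0.08, 0.01 and 0.19. The Spearman correlation of length and fold change was 0.15 over all 12392 entries and 0.25 over the 71 members, as a description, since all points come from the same 6 libraries. Among the 5 higher members, VPS13A and SNX13 have long models of 10949 and 7558 bases, and TSPAN18 has a short one. With the trend over all entries removed, a choice made after seeing the data, VPS13A was at 0.65 and SNX13 at 0.86, under the fold of 2. SNX25, TSPAN18, LAMP2 and the 4 lower tetraspanins were still past the unadjusted threshold, and the median of the 3 VPS13 genes was 0.30 in place of 0.65.

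**Figure D5:**
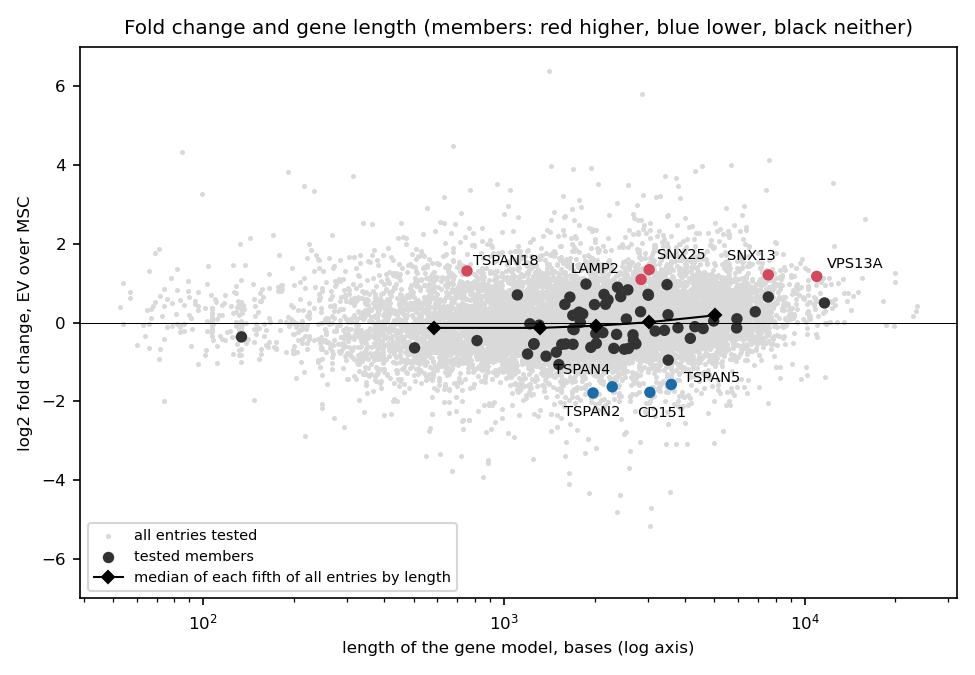
Log2 fold change of EV over MSC (y axis) against the length of the gene model in bases (x axis, log scale) for all 12392 tested entries (grey) and the 71 tested members, with the median of each of 5 equal groups of all entries by length. The medians go from -0.13 in the shortest group to 0.19 in the longest, and VPS13A and SNX13 lie at the long end.

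Partner genes that the symbol rule does not reach were read from lists. Of 8 tested ESCRT partners 0 were higher and 0 lower, and their values lay on both sides of 0. SNF8, the third ESCRT-II subunit, was at 109, 132 and 120.4 CPM in MSCs and 78.7, 57.7 and 63.4 CPM in EVs, with no overlap (-0.86, SE 0.22, adjusted p = 0.219 from edgeR). IST1, an ESCRT-III-like protein, was at 0.58 (adjusted p = 0.305 from edgeR) and the endosomal deubiquitinase USP8 at 0.95 (adjusted p = 0.316 from edgeR). With the pig as a block, USP8 at 1.09 and the ubiquitin ligase ITCH at 1.18 passed the unadjusted threshold (adjusted p = 0.162 and 0.169 from edgeR), where ITCH was at 0.98 without the block. Without MSC pig 2 they were at 0.59 and 0.56 and did not pass.

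Of 6 tested retromer partners, 2 were higher in EVs and 0 lower, against 5.55% and 3.57% of all entries. ANKRD50, which joins the retromer with SNX27, was at 86.5, 32.2 and 74.7 CPM in MSCs and 177, 176 and 167 CPM in EVs (log2 fold change 1.43, SE 0.37, adjusted p = 0.219 from edgeR). WASHC4 of the actin-nucleating WASH complex was at 58.4, 18.0 and 47.2 CPM in MSCs and 72.7, 88.9 and 87.3 CPM in EVs (1.01, adjusted p = 0.296 from edgeR), and its complex partner WASHC5 at 0.70. MSC pig 2 was the lowest library for all 3 genes, and without it their log2 fold changes were 1.11, 0.65 and 0.48, so that ANKRD50 alone passed the unadjusted threshold. WASHC4 also missed it without EV pig 1, 2 or 3 or MSC pig 3, at 0.97 to 1.11. COMMD1, which acts with the retriever, was at -0.69 (adjusted p = 0.251 from edgeR). Of 6 tested tetraspanin partners, which include ADAM10, the integrin subunits ITGA3 and ITGA6 and the immunoglobulin proteins IGSF8 and PTGFRN, 0 were higher and 0 lower, with log2 fold changes from -0.79 to 0.49. With the pig as a block ITGA3 was at -1.13 and passed the unadjusted threshold as lower (adjusted p = 0.248 from edgeR).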

How the data were processed

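Each of 3 pigs gave 1 MSC and 1 EV mRNA library, and libraries were grouped by the labels. The authors aligned reads to the pig genome susScr3 with TopHat and deposited raw counts per gene entry, made with featureCounts per the paper (the submitters' notes list HTSeq). They also deposited RPKM, which scales those reads by gene length and library total, and these values were used only for levels between genes and in limma. The labels name a stranded library kit and the paper another kit, and whether counting used strand is not given in the sources used here. The table has no columns of the authors' comparisons. Of 29661 rows, 3 were shifted by a column and left out. Symbols were those of the table for 4336 entries, and 11804 of 25322 Ensembl identifiers were matched to symbols.

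The EV and MSC groups were compared by the quasi-likelihood test of edgeR 4.0.16 (R 4.3.3) without covariates, after its filter on low counts (filterByExpr) and TMM scaling, over all 12392 entries that passed the filter, with Benjamini-Hochberg adjustment over all of them. The adjusted threshold was a fold change over 2 with an adjusted p-value under 0.05 and the unadjusted one a fold change over 2 with p under 0.05. The unadjusted one has the study's cut-offs, but the study took its p-values from a Student t-test. CPM values are TMM-normalized. The fits were tested on simulated data. Alternatives were DESeq2 1.42.0, its size factors within edgeR (RLE), no filter, limma 3.58.1 on log2(RPKM + 1) and log2(RPKM + 0.1), the pig as a block, entries of a symbol summed and leaving out each library. The partner genes and markers were read in the same fits with the block and with each library left out. A fit without the length trend (loess span 0.5) was added after the data were seen. No pseudocount was added to counts.

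The pairing by pig comes from the pig labels. Deviations from the group means correlated at 0.251, 0.384 and 0.408 for libraries of the same pig, and at -0.364 to -0.038 for others. Deviations within a group sum to 0 for each entry, so positive values for the same pig pull the others below 0. The negative values are therefore no separate sign of pairing.

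Members and lists were chosen with earlier results of these data known. Named were the members past the unadjusted threshold in either direction or past the adjusted one with the pig as a block, the EV markers CD9, CD63, CD81, TSG101, PDCD6IP, SDCBP, HGS, LAMP1 and LAMP2, the member with the highest mean RPKM of each subgroup, and members under the filter. Other members, and the partner genes and markers given with values, were chosen after their values had been seen. A limit of 3 reads for a count of 0 covers counting error only. The miRNA tables were not used here.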

Additional observations from a re-analysis of the deposited data

How the results depend on the processing

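Past the adjusted threshold, DESeq2 called 2 members higher and 3 lower, where edgeR called 0 of each. Past the unadjusted threshold, 5 members were higher, and this count was 2 with limma on log2(RPKM + 1), 3 with the length trend removed (added after seeing the data) and 2 to 8 when each library was left out, with 2 without MSC replicate 2 and 8 without MSC replicate 3. The count of lower members was 4, with 3 by limma on either pseudocount and 4 to 6 when each library was left out. With the replicate block (the pig), 7 members were higher and 4 lower past the unadjusted threshold, since SNX16 and VPS8 joined the 5, and the counts past the adjusted threshold stayed at 0. The share of all entries past the unadjusted threshold with the block is not given here, so these counts have no background. Among the partner genes, ITCH, USP8 and RAB5A became higher and ITGA3 lower past the unadjusted threshold with the block. The block changed no other call among the members, partners and markers tested. Leaving out each library moved the log2 fold change of CD81 between -0.65 and 0.051, of LAMP1 between -0.66 and 0.53 and of VPS9D1 between -0.37 and 0.065, the latter without EV replicate 3, and VPS9D1 was at 0.064 without MSC replicate 2. CD81 and LAMP1 turned without MSC replicate 2. The cause was not tested in any of these cases. Over the named members and all alternatives, 305 fold changes kept direction and side of the threshold, 12 lost the threshold, 1 gained it and 4 changed sign. There were 3 libraries a group, and 3 reads were worth 0.244 to 0.288 CPM before TMM scaling. The values of TSPAN2, LAMP1, CD9 and VPS4A thus rest on few reads. LAMP1, CD9 and VPS4A also have a second entry over their span, and the cause of their low counts was not tested.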

Other observations

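Genes that act beside this machinery but outside its symbols gave a mixed picture. The ESCRT-independent route, in which ceramide, syndecans and lipid raft proteins shape vesicles, had 7 tested genes. Past the unadjusted threshold 1 was lower in EVs and 0 higher, against 3.57% and 5.55% of all entries. The median log2 fold change of the 7 was -0.64, against -0.02 over all entries. Without MSC pig 2 this median was -0.22, against 0.001 over all entries. SDC2, a syndecan that binds syntenin, was at 187, 260.1 and 325 CPM in the MSC libraries of pigs 1, 2 and 3 and at 68.6, 86.2 and 135 CPM in the EV libraries (log2 fold change -1.41, SE 0.34, adjusted p = 0.219 from edgeR), with no overlap. PLD2, a phospholipase D, was at 92.5, 90.8 and 76.2 CPM in MSCs and 58.3, 39.1 and 37.2 CPM in EVs (-0.95, adjusted p = 0.222 from edgeR), and the raft protein FLOT2 at -0.89 (adjusted p = 0.277 from edgeR), both under a fold change of 2. FLOT2 passed the unadjusted threshold without MSC pig 1 or 3, and PLD2 without EV pig 1 or MSC pig 3. Without MSC pig 2, FLOT2 was at -0.46 and PLD2 at -0.91 and neither passed, while SDC2 stayed lower at -1.41. The neutral sphingomyelinase SMPD3, which makes ceramide, was at -0.21 (SE 0.39).

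The RAB GTPases of endosomes and EV release had 5 tested genes and 0 past the threshold in either direction. RAB7A of late endosomes was at 347, 504 and 382 CPM in MSCs and 313, 374 and 283 CPM in EVs (-0.35, SE 0.26), RAB27A, which docks endosomes for release, at -0.34 (SE 0.36), and RAB5A of early endosomes at 0.87 (SE 0.41). RAB5A passed the unadjusted threshold as higher with the pig as a block, at 1.00 (adjusted p = 0.188 from edgeR), and was at 0.52 without MSC pig 2. The VPS34 kinase complex, which makes the endosomal phosphoinositide that sorting nexins bind, had 5 tested genes with a median of 0.21 and 0 past the threshold. Its catalytic gene PIK3C3 was listed at 0 reads in all 6 libraries, as were RAB11A, RAB11B and RAB5C. CAV1 and ITGB1, which are common in MSCs, held 0 or 1 and 1 to 3 reads a library. For partner genes and markers too, a value at or near 0 cannot be told apart from reads that were not assigned.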
